A study of Mus musculus with 26 samples.

Results

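Wnt signalling was examined through 40 genes that were listed by function, from the ligands to the nuclear factors, with earlier results of these data known. Of these, 37 were measured among 19505 genes, and Tcf7, Ctnnb1 and Rnf43 were not analysed here. The cells were neural stem and progenitor cells of C57BL/6 mice, grown from the telencephalon in medium with EGF and FGF-1. The cultures of each animal were kept separate and were treated after passage 3. The stage is given as postnatal day 0, and the tissue is also called fetal. The 4 groups were 7 SOX2 knockout (KO) cultures after 4 h of 100 nM dexamethasone (Dex, a synthetic glucocorticoid), 6 wild-type (WT) cultures after the same treatment, and the same 7 KO and 6 WT cultures after 4 h of the ethanol vehicle. Cultures 1 to 6 were WT and cultures 7 to 13 were KO. Both sexes were used, the sex of each array is not given, and neither the allele nor any Cre driver behind the knockout is given in the sources used here.

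Wnt proteins are lipid-modified ligands that the cargo receptor Wls carries to the cell surface, where they bind Frizzled receptors together with the co-receptors Lrp5 and Lrp6. In the canonical branch this stops the Axin, Apc and Gsk3b complex from degrading beta-catenin, which then acts with Lef1 and Tcf factors on target genes such as Axin2, itself an inhibitor of the pathway. In the developing telencephalon Wnt signals pattern the dorsal midline and regulate the proliferation and differentiation of progenitors.

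Some arrays stood apart from the rest. Fkbp5, Per1 and Fam107a, which glucocorticoids induce, were higher in the Dex than in the vehicle array of all 7 KO cultures and of 5 of 6 WT cultures. In WT culture 4 all of them went against the label, with Dex minus vehicle differences of -2.03, -2.74 and -6.83 log2 units, and the 2 arrays may have been exchanged. They are called by their labels throughout, but an exchange would turn the sign of every Dex minus vehicle difference of culture 4 and move its values between the WT Dex and WT vehicle groups. Without culture 4 the genotype calls below were the same 4 Wnt genes in vehicle and the same 3 in Dex. In KO culture 12, 13 of the 37 Wnt genes differed between its arrays by more than 1 log2 unit, against 0 to 5 in each other culture. Grouped by their overall profile, the cultures formed 3 array clusters. The labels say nothing of these. They held WT cultures 1, 2 and 3 with KO cultures 7 and 8, then WT culture 4 with KO cultures 10 and 12, and then WT cultures 5 and 6 with KO cultures 9, 11 and 13. Sox2 itself averaged 4.79 ± 0.89 (SD, n = 7) in KO Dex and 12.96 ± 0.56 (SD, n = 6) in WT Dex arrays, and 4.65 ± 0.51 in KO vehicle and 13.40 ± 0.70 in WT vehicle arrays.

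All levels below are in the log2 units of the authors' table. Differences are KO minus WT, or Dex minus vehicle, with the standard error (SE) of the limma fit, and a gene was called at a Benjamini-Hochberg adjusted p under 0.05 over all 19505 genes. Olfactory and vomeronasal receptor genes, which these cells are not known to express, served as a guide to low signal. Over all arrays 95% of 1412 such genes averaged at or below 6.06, and 29 of the 37 Wnt genes averaged above this limit. The other 8 were Lef1, Fzd6, Dkk1, Dkk2, Dkk3, Wif1, Nkd2 and Sp5. Levels of different genes are not set against each other, because each comes from its own probes. In such bulk RNA fewer cells of a type and less RNA per cell cannot be told apart.

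Between genotypes, 4 of the 37 Wnt genes were called in vehicle. Wls, Fzd9 and Lef1 rose in KO cultures and Axin2 fell. Among all genes 0.19% were called higher and 0.369% lower. In Dex the same comparison called 3 of the 37, again Wls, Fzd9 and Lef1, all higher, where 0.185% of all genes were called higher and 0.379% lower. Both comparisons rest on the same 13 cultures, so the second is not a separate set of animals. The median KO minus WT difference over the 37 genes was -0.07 in Dex, against -0.06 over all genes, and -0.11 in vehicle, against -0.03 over all genes. In each treatment 16 of the 37 differences were above 0 and 21 below, where 41.3% of all genes were above 0 in Dex and 44.8% in vehicle. The sign of these small medians depended on the setting, at 0.01 in Dex after median centring of the arrays and 0.02 in vehicle with array cluster in the fit. With array cluster as a term in the fit, 4 Wnt genes were called higher and 2 lower in Dex, against 0.959% and 1.08% of all genes. In vehicle 3 were called higher and 2 lower, against 0.964% of all genes in each direction. The clusters were drawn from these same expression values, which can make the p-values of this fit too small, here and below.

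**Figure D1:**
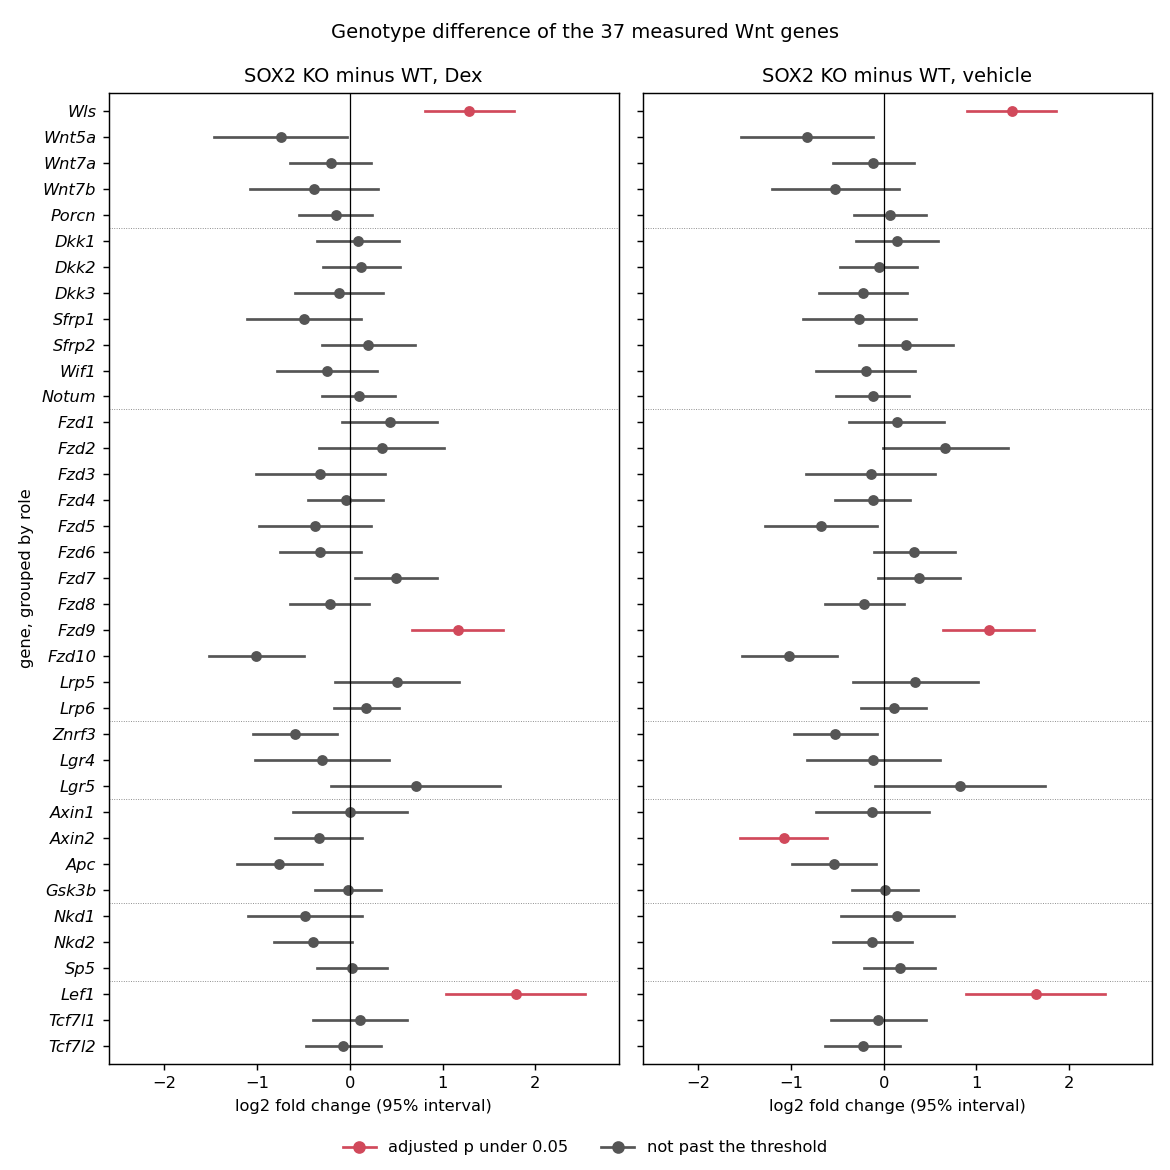
KO minus WT differences of the 37 measured Wnt genes in Dex (left) and vehicle (right), as log2 fold changes with 95% intervals from limma, grouped by role from ligands at the top to nuclear factors at the bottom. Red marks an adjusted p under 0.05. Wls, Fzd9 and Lef1 lie to the right of 0 in both panels, and Axin2 is called lower in vehicle alone.

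The promoters of the 4 called genes are printed because these are the members whose levels carry the genotype difference. The sequences are from RefSeq on GRCm38.p6, from 250 bases before to 50 after the start of transcription, 5′ to 3′ on the strand of the gene, and capitals mark CTTTG or its reverse complement CAAAG, the core shared by Lef1 and Tcf binding sites. Wls, Lef1 and Axin2 lie on the plus strand and Fzd9 on the minus strand. For Lef1, which has 4 annotated starts in the table, the most upstream one is shown. The Axin2 window lies inside the annotated gene, which begins at 108917828, so it is that of an internal start.
Wls promoter, chr3:159839400-159839699: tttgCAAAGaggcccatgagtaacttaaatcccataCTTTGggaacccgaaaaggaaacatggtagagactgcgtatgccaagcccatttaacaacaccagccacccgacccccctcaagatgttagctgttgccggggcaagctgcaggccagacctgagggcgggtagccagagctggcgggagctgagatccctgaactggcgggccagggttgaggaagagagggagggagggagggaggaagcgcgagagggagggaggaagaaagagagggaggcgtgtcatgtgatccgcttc
Lef1 promoter, chr3:131110047-131110346: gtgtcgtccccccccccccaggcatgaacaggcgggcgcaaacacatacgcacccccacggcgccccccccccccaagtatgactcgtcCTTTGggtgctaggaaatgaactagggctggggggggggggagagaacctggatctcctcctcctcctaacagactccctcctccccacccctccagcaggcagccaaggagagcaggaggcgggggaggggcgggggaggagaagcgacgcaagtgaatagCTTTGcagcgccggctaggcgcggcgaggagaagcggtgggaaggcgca
Fzd9 promoter, chr5:135250998-135251297: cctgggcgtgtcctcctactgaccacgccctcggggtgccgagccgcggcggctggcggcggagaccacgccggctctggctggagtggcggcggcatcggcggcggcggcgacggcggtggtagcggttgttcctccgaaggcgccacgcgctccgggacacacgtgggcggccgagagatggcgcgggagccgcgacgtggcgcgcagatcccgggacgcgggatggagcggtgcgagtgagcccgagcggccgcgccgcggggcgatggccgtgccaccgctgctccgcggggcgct
Axin2 promoter, chr11:108920099-108920398: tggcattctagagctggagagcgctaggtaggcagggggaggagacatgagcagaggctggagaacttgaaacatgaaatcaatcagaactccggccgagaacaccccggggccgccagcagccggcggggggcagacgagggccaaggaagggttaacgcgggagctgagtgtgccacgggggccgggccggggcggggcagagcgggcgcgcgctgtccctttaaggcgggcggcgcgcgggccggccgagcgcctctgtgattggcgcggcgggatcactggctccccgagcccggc

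The Wls and Lef1 windows each held 2 copies of the core, and those of Fzd9 and Axin2 held 0. The core is a common word, present in 53.9% of all 32851 mouse promoter windows of the table. The Fzd9 window was 78% G and C with 53 CG pairs and the Axin2 window 70% with 31, against medians of 52.7% and 7 over all windows. The Lef1 window was 67.3% G and C with 18 CG pairs, and the Wls window 58% with 11. Of the 37 genes, 21 had 25 windows in the table. The longer Tcf and Lef motif CTTTGAT, searched on both strands and containing the core, was in 1 of these 25 (Sp5), against 3.73% of all windows. The Sox motif ACAATGG was in 0 of 25, against 3.66% and the full palindromic glucocorticoid response element in 0 of 25, against 0.00913%. These are matches of letters within 300 bases and say nothing of binding.

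Among ligands and the genes of their secretion, Wls was higher in KO cultures by the smallest p of any Wnt gene. Wls (TC0300001589.mm.2) lies on chromosome 3 at 159839650 to 159938666. In Dex its levels ran from 11.95 to 12.86 with a median of 12.41 in KO cultures, against 10.53 to 11.71 with a median of 11.27 in WT cultures. In vehicle they ran from 12.24 to 13.10 (median 12.78) in KO and from 10.61 to 12.01 (median 11.47) in WT cultures. Every KO array lay above every WT array of the same treatment, a separation that 0.19% of all genes showed in this direction in Dex and 0.159% in vehicle. The difference was 1.29 ± 0.23 (SE, n = 7 and 6, limma adjusted p = 0.00331), a 2.44-fold difference, in Dex and 1.38 ± 0.23 (limma adjusted p = 0.00166), or 2.61-fold, in vehicle. Within the array clusters the KO minus WT means of Wls were 1.75, 0.70 and 1.00 in Dex and 1.96, 1.39 and 0.70 in vehicle. The call held in both treatments in each of the 13 fits that left out 1 culture.

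Wnt5a, a ligand mainly of the noncanonical branch, had levels of 7.35 to 8.55 (median 8.13) in KO Dex and 7.28 to 10.55 (median 8.67) in WT Dex arrays. In vehicle it had 7.43 to 8.96 (median 8.65) in KO and 8.51 to 10.03 (median 9.25) in WT arrays. The groups overlapped, and the differences of -0.75 ± 0.35 (SE) in Dex and -0.83 ± 0.35 in vehicle were not called (limma adjusted p = 0.629 and 0.736). Both of the highest WT values belonged to culture 4, and without it the differences were -0.39 ± 0.29 in Dex and -0.66 ± 0.29 in vehicle. Wnt7a and Wnt7b, ligands of the canonical branch in neural tissue, and Porcn, the enzyme that attaches the lipid, had differences of -0.39 to -0.15 in Dex and -0.52 to 0.07 in vehicle, none called.

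Among the 12 receptors and co-receptors, Fzd9 had the most positive KO minus WT difference and Fzd10 the most negative in both treatments. Fzd9 (TC0500003391.mm.2) lies on chromosome 5 at 135248938 to 135251047. Its levels were 8.95 to 10.57 (median 9.73) in KO Dex and 7.98 to 9.12 (median 8.485) in WT Dex arrays, and 8.89 to 10.34 (median 9.59) in KO vehicle and 8.07 to 8.65 (median 8.385) in WT vehicle arrays. By the labels the genotypes did not overlap in vehicle, as in 0.159% of all genes in this direction. In Dex the lowest KO array, of culture 10, lay below the WT array of culture 4. If the arrays of culture 4 were exchanged, its present Dex value would lie above the lowest KO vehicle value of 8.89, and the genotypes would overlap in vehicle. Its present vehicle value, no higher than 8.65, would lie below every KO Dex array. The difference was 1.16 ± 0.24 (SE, limma adjusted p = 0.0118), or 2.24-fold, in Dex and 1.13 ± 0.24 (limma adjusted p = 0.0142), or 2.19-fold, in vehicle. Within the clusters it was 1.35, 0.64 and 1.30 in Dex and 1.73, 0.68 and 0.99 in vehicle. In vehicle the call was lost without culture 1 or culture 2 (adjusted p = 0.0646 and 0.0502), and in Dex without culture 5 (adjusted p = 0.0511) or with only the arrays of the 2 groups in the fit (adjusted p = 0.0653).

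Fzd10 lies on the same chromosome at 128601106 to 128604093. It had 6.81 to 7.94 (median 7.00) in KO Dex and 7.76 to 8.91 (median 7.98) in WT Dex arrays, and 6.63 to 7.14 (median 6.99) in KO vehicle and 7.13 to 8.92 (median 7.97) in WT vehicle arrays. In each treatment the genotypes touched at 1 KO array, that of culture 12 in Dex and of culture 13 in vehicle. The differences were -1.01 ± 0.25 (SE, limma adjusted p = 0.0546) in Dex and -1.02 ± 0.25 (limma adjusted p = 0.0531) in vehicle and so missed the threshold. With array cluster in the fit Fzd10 was called lower in both, at -1.10 ± 0.22 (limma adjusted p = 0.00387) and -1.11 ± 0.22 (limma adjusted p = 0.00365), and it was called in both without culture 12 as well (adjusted p = 0.0221 and 0.0445). In vehicle it was also called without culture 1 or 2 (adjusted p = 0.0489 and 0.0209) and with the culture as a random block (limma adjusted p = 0.0487), and in Dex without culture 6 (adjusted p = 0.0393). Of 12 alternatives other than leaving out 1 culture, 6 left Fzd10 uncalled in each treatment, with limma adjusted p up to 0.264 in Dex and 0.186 in vehicle. Leaving out 1 culture gave adjusted p up to 0.194 in Dex and 0.164 in vehicle, with differences as small as -0.86 and -0.82.

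The co-receptor Lrp5 had 7.79 to 9.34 (median 8.25) in KO Dex and 6.45 to 8.64 (median 7.915) in WT Dex arrays, and 7.63 to 9.12 (median 8.30) in KO vehicle and 6.95 to 8.63 (median 8.075) in WT vehicle arrays. The groups overlapped and the differences of 0.51 ± 0.33 in Dex and 0.34 ± 0.33 (SE) in vehicle were not called. Without culture 5 they were 0.23 and 0.14, and without culture 7 the difference in vehicle was 0.21. With array cluster in the fit Lrp5 was called higher in Dex, at 0.74 ± 0.19 (limma adjusted p = 0.0346), and not in vehicle, at 0.57 ± 0.19 (limma adjusted p = 0.160). Fzd1 and Fzd6, described with Dex below, were not called between genotypes, and Fzd2, Fzd3, Fzd4, Fzd5, Fzd7, Fzd8 and Lrp6 had differences of -0.38 to 0.50 in Dex and -0.68 to 0.67 in vehicle. The lowest adjusted p among these 7 was 0.563 in Dex and 0.774 in vehicle.

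**Figure D2:**
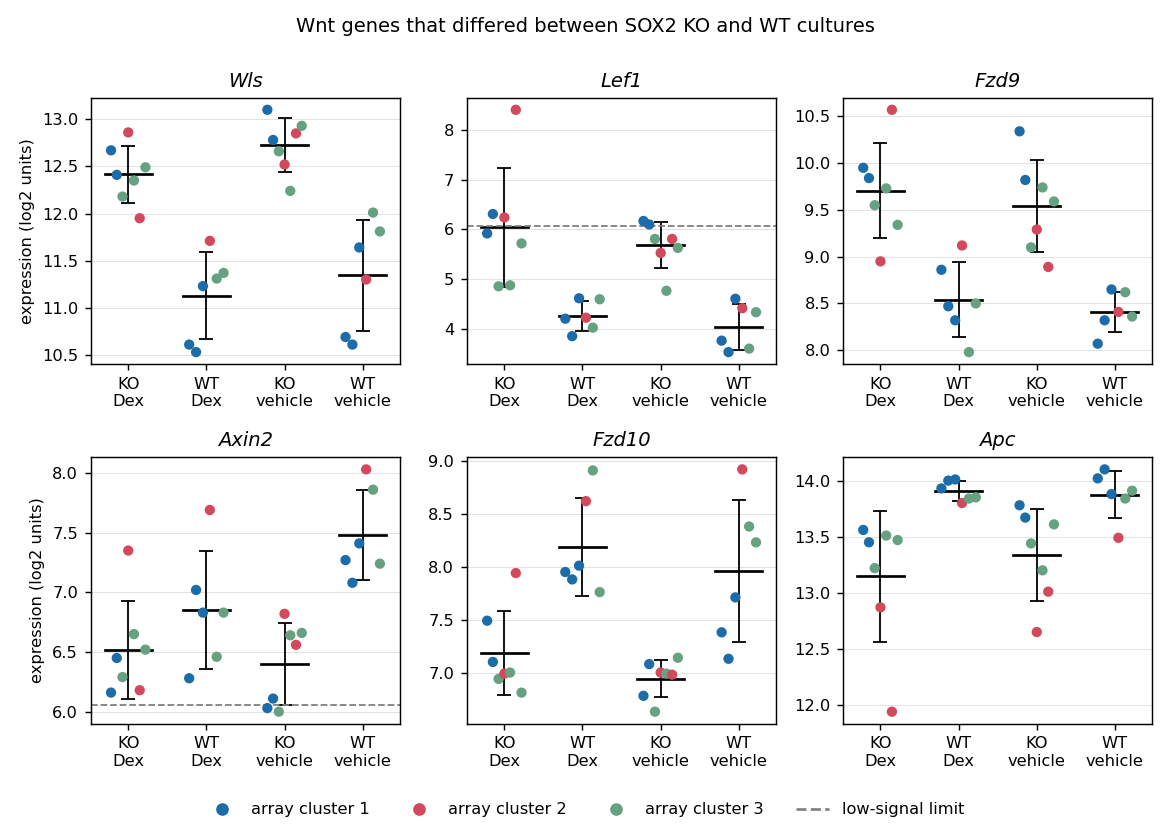
Level of 6 Wnt genes on each array, in log2 units, by group, with each point an array coloured by array cluster, and bars for the group mean and SD (KO n = 7, WT n = 6). The dashed line is the low-signal limit of 6.06. KO points lie above WT points for Wls and Lef1 in both treatments, and Axin2 separates the genotypes in vehicle alone.

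Axin2 was the 1 member of the destruction complex that was called. Axin2 (TC1100001820.mm.2) lies on chromosome 11 at 108917828 to 108950783. In vehicle its levels were 6.00 to 6.82 (median 6.56) in KO and 7.08 to 8.03 (median 7.34) in WT arrays, so that every KO array lay below every WT array, as for 0.359% of all genes. The difference was -1.08 ± 0.23 (SE, n = 7 and 6, limma adjusted p = 0.0159), 2.11-fold lower in KO. Only 5 of the 7 KO vehicle arrays lay above the low-signal limit, against 6 of 6 WT vehicle arrays. The KO level was thus close to that limit, and the size of this fold is uncertain. Within the 3 array clusters the difference was -1.18, -1.34 and -1.12. The call was lost without culture 5, 8 or 9 (adjusted p = 0.0607, 0.0509 and 0.0600). In Dex the levels were 6.16 to 7.35 (median 6.45) in KO and 6.28 to 7.69 (median 6.83) in WT arrays, and the difference of -0.34 ± 0.23 was not called (limma adjusted p = 0.847).

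Apc, a scaffold of the same complex, had 11.94 to 13.56 (median 13.45) in KO Dex and 13.80 to 14.01 (median 13.89) in WT Dex arrays. These did not overlap, as in 0.292% of all genes in this direction, and the lowest value was that of culture 12. In vehicle the levels of 12.65 to 13.78 (median 13.44) in KO and 13.49 to 14.10 (median 13.895) in WT arrays overlapped. The 13.49 was that of WT culture 4, whose labels are in doubt. If its arrays were exchanged, this value would fall below the highest KO Dex value of 13.56, and the genotypes would overlap in Dex. The differences were -0.76 ± 0.22 (SE, limma adjusted p = 0.150) and -0.54 ± 0.22 (limma adjusted p = 0.689). With array cluster in the fit the difference in Dex was called, at -0.66 ± 0.15 (limma adjusted p = 0.0168), but not without culture 4, the 1 WT culture of its cluster, at -0.50 ± 0.15 (limma adjusted p = 0.147). It was also called after quantile normalization (adjusted p = 0.0434). Axin1 and the kinase gene Gsk3b had differences between -0.12 and 0.02 in both treatments.

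Of the nuclear factors, Lef1 was higher in KO cultures, in which most arrays still lay at or below the low-signal limit. Lef1 (TC0300001330.mm.2) lies on chromosome 3 at 131110297 to 131224357. Its levels were 4.86 to 8.40 (median 5.92) in KO Dex and 3.86 to 4.62 (median 4.22) in WT Dex arrays, and 4.77 to 6.17 (median 5.81) in KO vehicle and 3.54 to 4.61 (median 4.055) in WT vehicle arrays. The genotypes did not overlap in either treatment, as in 0.19% of all genes in this direction in Dex and 0.159% in vehicle. Above the limit of 6.06 lay 3 of 7 KO Dex and 0 of 6 WT Dex arrays, and 2 of 7 KO vehicle and 0 of 6 WT vehicle arrays. The difference was 1.79 ± 0.37 (SE, limma adjusted p = 0.0111) in Dex and 1.64 ± 0.37 (limma adjusted p = 0.0240) in vehicle. Without culture 12, whose Dex array held the 8.40, it was 1.40 ± 0.27 (adjusted p = 0.00843) in Dex and 1.62 ± 0.27 (adjusted p = 0.00184) in vehicle.

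Within the array clusters the Lef1 differences were 1.89, 3.09 and 0.84 in Dex and 2.16, 1.25 and 1.43 in vehicle. The call in vehicle was lost without culture 1, 2, 5, 7, 8 or 13, at adjusted p-values of 0.0911, 0.0960, 0.0897, 0.0675, 0.0686 and 0.0583, and that in Dex with only the arrays of the 2 groups in the fit (adjusted p = 0.0981). The other factors measured, Tcf7l1, mainly a repressor, and Tcf7l2, were not called. Tcf7l2 had 13.01 to 13.88 (median 13.45) in KO Dex and 12.95 to 13.85 (median 13.66) in WT Dex arrays, with a difference of -0.07 ± 0.20 (SE). In vehicle it had 13.13 to 14.37 (median 13.59) in KO and 13.51 to 14.16 (median 13.94) in WT arrays, with a difference of -0.23 ± 0.20.

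**Figure D3:**
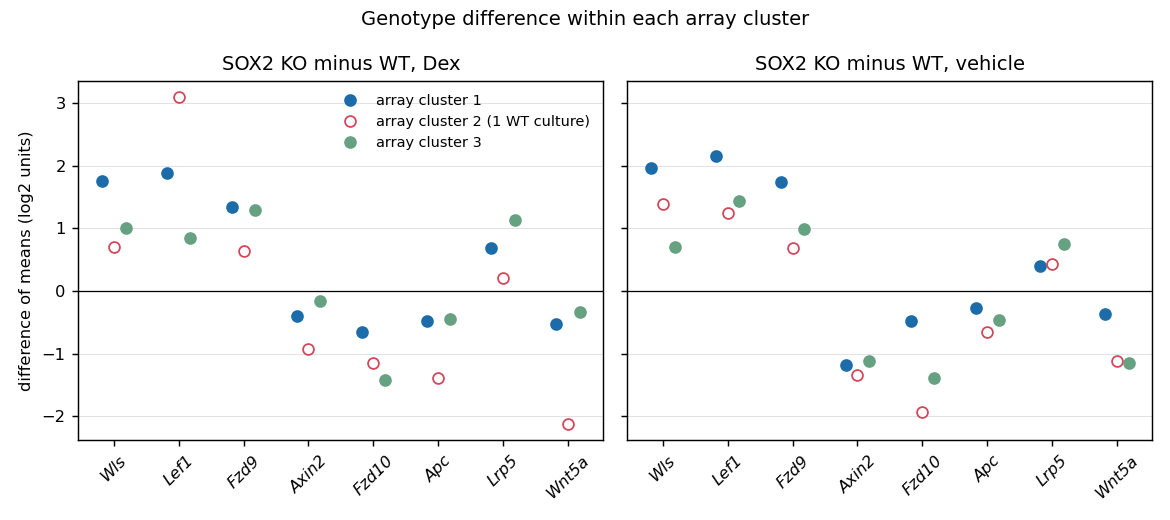
KO minus WT difference of mean level, in log2 units, of 8 Wnt genes within each of the 3 array clusters, in Dex (left) and vehicle (right). Open points mark the cluster with 1 WT culture. The 3 points of each gene lie on the same side of 0 in both panels.

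None of the inhibitors and regulators passed between genotypes. The 7 secreted inhibitors (Dkk1, Dkk2, Dkk3, Sfrp1, Sfrp2, Wif1 and the Wnt deacylase gene Notum) had differences of -0.50 to 0.20 in Dex and -0.26 to 0.24 in vehicle, with a smallest adjusted p of 0.797 in Dex. Nkd1 and Nkd2, inhibitors that act in the cell, and the target factor gene Sp5 had -0.48 to 0.02 in Dex and -0.12 to 0.17 in vehicle. Znrf3, a ligase that removes Frizzled receptors, had 10.32 ± 0.64 (SD, n = 7) in KO Dex and 10.91 ± 0.17 (SD, n = 6) in WT Dex arrays, and 10.41 ± 0.28 in KO vehicle and 10.93 ± 0.15 in WT vehicle arrays, with uncalled differences of -0.59 ± 0.22 and -0.52 ± 0.22 (SE). The R-spondin receptor gene Lgr4 had -0.30 ± 0.35 and -0.11 ± 0.35.

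Lgr5, the other R-spondin receptor gene measured, varied more within than between genotypes. It had 7.49 to 9.90 (median 8.66) in KO Dex and 6.64 to 9.22 (median 7.86) in WT Dex arrays, and 7.76 to 9.70 (median 8.83) in KO vehicle and 7.01 to 9.01 (median 8.035) in WT vehicle arrays. Its differences of 0.71 ± 0.45 and 0.82 ± 0.45 (SE) were not called. The WT arrays fell into separate levels by array cluster, 6.64 to 7.18 in Dex and 7.01 to 7.16 in vehicle for cultures 1, 2 and 3, against 8.54 to 9.22 and 8.91 to 9.01 for cultures 4, 5 and 6. The KO arrays of culture 7 and 8, in the cluster of those first 3, had 7.65 to 9.01 in Dex and 7.76 to 8.83 in vehicle.

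Further genes of the pathway and its targets were taken from lists that do not overlap the 40. Of 89 further Wnt genes measured, 1 was called higher and 1 lower in vehicle, where 0.19% of all genes were higher and 0.369% lower, and 0 were higher and 1 lower in Dex, where the shares of all genes were 0.185% and 0.379%. Without culture 4 the 1 call in Dex was lost (Sostdc1, limma adjusted p = 0.0866). The medians were -0.10 in Dex and -0.04 in vehicle, against -0.06 and -0.03 over all genes. With array cluster in the fit 2 were higher and 1 lower in Dex, against 0.959% and 1.08% of all genes in that fit. In vehicle 3 were higher and 1 lower, against 0.964% of all genes in each direction, and the vehicle median was 0.03. The genes added there were Hbp1 in both treatments, Draxin in Dex and Frzb, a secreted Wnt antagonist, in vehicle (1.76 ± 0.47, limma adjusted p = 0.0473). Draxin, a secreted axon guidance protein that inhibits canonical Wnt signalling, had levels of 6.27 to 8.26 (median 6.60) in KO vehicle and 4.83 to 5.82 (median 5.695) in WT vehicle arrays. These did not overlap, as in 0.159% of all genes in this direction. All 6 WT vehicle arrays lay below the low-signal limit of 6.06 and all 7 KO vehicle arrays above it, so the WT level is uncertain. The mean of the KO vehicle arrays was 1.68-fold above that limit. The limit comes from the probes of other genes and this fold carries no sampling error, so it is only a rough guide. The fitted difference of the measured values was 1.28 ± 0.26 (SE, limma adjusted p = 0.00785), called in each fit that left out 1 culture. In Dex the WT arrays again all lay below the limit, and the fitted 0.94 ± 0.26 was not called (limma adjusted p = 0.103), but was with array cluster in the fit (adjusted p = 0.0105).

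The glypican gene Gpc4, whose product is a surface proteoglycan that binds Wnt ligands, had 7.69 to 9.66 (median 8.74) in KO vehicle and 9.23 to 10.82 (median 10.46) in WT vehicle arrays. It fell by 1.44 ± 0.31 (SE, limma adjusted p = 0.0145) in vehicle, a call lost without culture 5 or 10 (adjusted p = 0.0587 and 0.0536), without both cultures 4 and 12 (adjusted p = 0.0722) or with array cluster in the fit and culture 4 left out (-1.16 ± 0.31, adjusted p = 0.0804), and its difference in Dex of -1.03 ± 0.31 was not called. Sostdc1, a secreted Wnt and BMP inhibitor, had 6.05 to 7.13 (median 6.60) in KO Dex and 6.96 to 7.74 (median 7.435) in WT Dex arrays. Its difference in Dex was -0.79 ± 0.19 (SE, limma adjusted p = 0.0376), and the call was lost in 10 of the 13 fits that left out 1 culture, without culture 1, 3, 4, 5, 6, 9, 10, 11, 12 or 13 (adjusted p up to 0.139), and with the culture as a random block (adjusted p = 0.0677). It was lost as well after quantile normalization or median centring, with only the 2 groups compared, without both cultures 4 and 12, without the Dex array of culture 12 and with array cluster without culture 4 (adjusted p of 0.0509 to 0.189). Hbp1, a repressor of Tcf targets, had 0.64 ± 0.24 in Dex and 0.99 ± 0.24 (limma adjusted p = 0.0515) in vehicle, and with array cluster in the fit 0.79 ± 0.16 (limma adjusted p = 0.00528) and 1.14 ± 0.16 (limma adjusted p = 8.5e-05).

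Of 32 Wnt or beta-catenin target genes measured, 1 was called higher in vehicle, where 0.19% of all genes were, and 0 in Dex, where 0.185% were, with 0 lower in either. The medians were -0.07 in Dex and -0.01 in vehicle, and the vehicle median was 0.07 with array cluster in the fit. The called gene, Id2, which encodes an inhibitor of basic helix-loop-helix factors that also responds to BMP signals, had 15.06 to 15.55 (median 15.20) in KO vehicle and 11.82 to 14.90 (median 13.77) in WT vehicle arrays. These did not overlap, as in 0.159% of all genes in this direction. Id2 was higher in KO by 1.81 ± 0.43 (SE, limma adjusted p = 0.0416) in vehicle, and the call was lost without culture 1, 4, 5, 6, 7, 8, 9, 10, 11 or 13 (adjusted p up to 0.130, and 0.120 without culture 4). With array cluster in the fit Id2 was called in both treatments, at 1.61 ± 0.34 (limma adjusted p = 0.00773) in Dex and 2.04 ± 0.34 (limma adjusted p = 0.000669) in vehicle. That fit called 0.959% of all genes higher in Dex and 0.964% in vehicle. The Notch ligand gene Jag1 had -0.51 ± 0.21 in Dex and -0.73 ± 0.21 in vehicle, and the proto-oncogene Mycn -0.18 ± 0.23 and -0.70 ± 0.23, none called.

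The cell type markers beside these differences were mostly uncalled. Of the other cell types' lists, 2 of 5 astrocyte genes (Aldoc and Slc1a2) and 1 of 8 neuronal genes (Syt1) were called lower in KO cultures in both treatments. Among all genes 0.379% were called lower in Dex and 0.369% in vehicle. Of the choroid plexus, endothelial, microglial, mural, neural crest and oligodendrocyte genes, 0 were called. Aldoc differed by -1.40 in Dex and -1.71 in vehicle, Slc1a2 by -2.08 and -2.03, and Syt1 by -1.42 and -1.59. The rest of both lists was uncalled, and some genes went the other way. Tubb3 differed by 0.64 in Dex and 0.52 in vehicle and Snap25 by 0.57 and 0.45. Dcx, Rbfox3, Map2, Stmn2 and Neurod6 were below 0 in both treatments. Gfap differed by 0.30 in Dex and -0.06 in vehicle, S100b by -0.06 and 0.38, and Aqp4 by -0.27 and 0.05. The mean of the astrocyte list was 8.45 to 10.81 in KO Dex and 8.87 to 11.57 in WT Dex arrays, and 8.75 to 10.81 in KO vehicle and 8.90 to 11.24 in WT vehicle arrays. The mean of the neuronal list was 7.65 to 8.42 in KO Dex and 8.01 to 8.97 in WT Dex arrays, and 7.85 to 8.42 in KO vehicle and 8.00 to 8.80 in WT vehicle arrays. Of 11 neural stem and progenitor markers, which include Sox2, that gene was the 1 called. The part of these cell types in the Wnt differences was not tested.

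Dex was then compared with vehicle within each genotype, with the culture as a block. None of the 37 Wnt genes was called in either genotype, among all genes 0.0718% higher and 0% lower in KO cultures and 0% in either direction in WT cultures. At an unadjusted limma p under 0.05, 1 Wnt gene was higher and 2 lower in KO cultures, against 3.7% and 6.47% of all genes, and 0 were higher and 4 lower in WT cultures, against 2.28% and 1.59%. The median difference over the 37 genes was -0.14 in KO cultures, with 12 above 0 and 25 below, against -0.02 over all genes, of which 45.5% were above 0. In WT cultures it was -0.06, with 15 above 0 and 22 below, against 0.00 and 50.9%. Leaving out culture 4 gave 31 genes higher (0.159%) and 2 lower (0.0103%) in WT cultures, but again 0 of the 37. Leaving out both cultures 4 and 12 called 0.318% of all genes higher and 0.0205% lower in KO and 0.256% and 0.041% in WT cultures, with 0 of the 37.

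**Figure D4:**
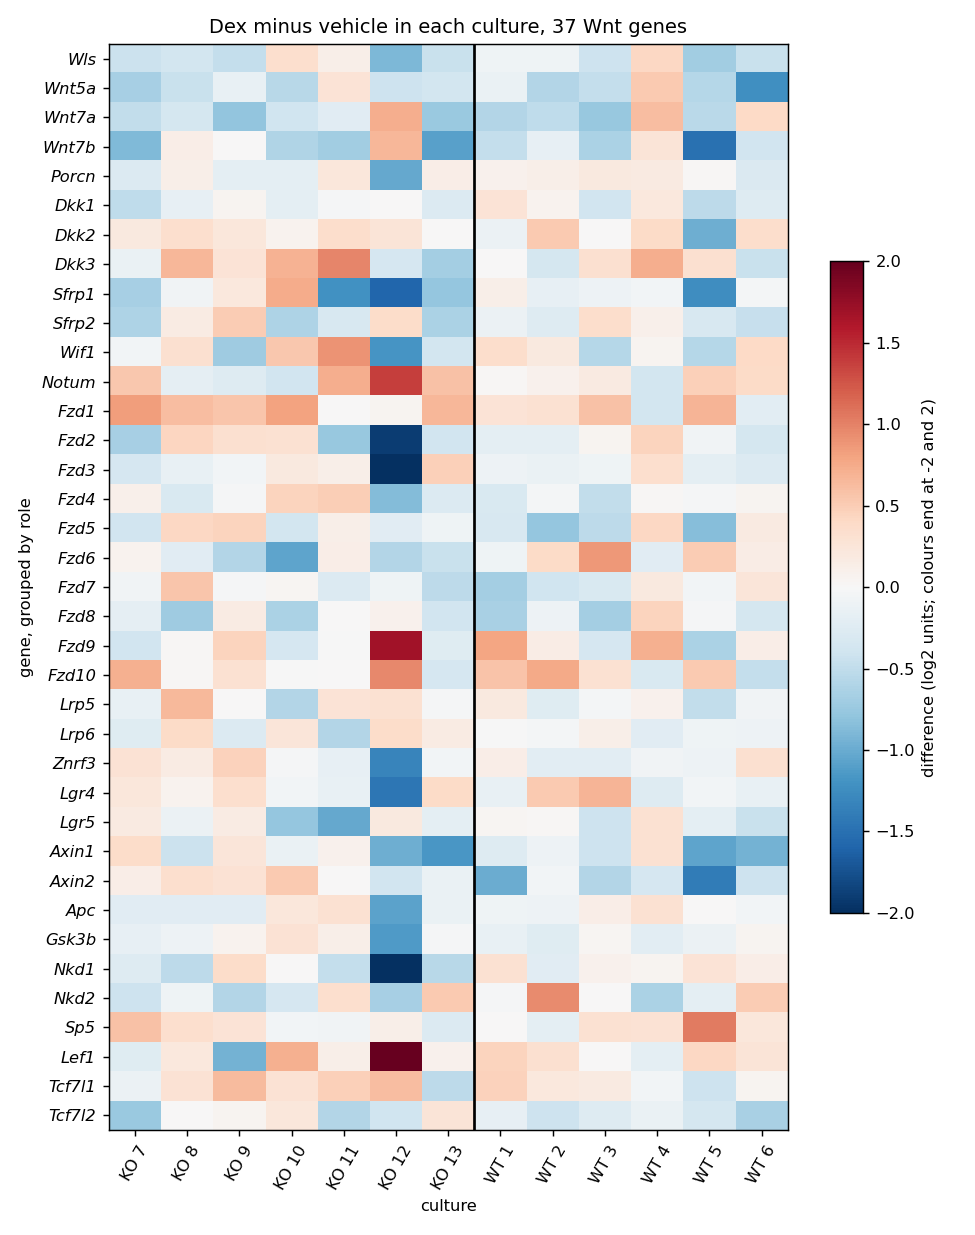
Dex minus vehicle difference, in log2 units, of the 37 Wnt genes (down the page, by role) in the 7 KO and 6 WT cultures (across). Red is higher and blue lower in the Dex array, with colours ending at -2 and 2. KO culture 12 has 13 genes beyond 1 log2 unit, more than any other culture.

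In WT cultures Axin2 had the smallest Dex p of the 37. Its Dex minus vehicle differences were -1.40 to -0.06 with Dex lower in 6 of 6 cultures by the labels, a pattern that 2.11% of all genes showed in this direction. Culture 4, whose labels are in doubt, had -0.34, and the pattern would be 5 of 6 if its arrays were exchanged. The fitted difference was -0.63 ± 0.17 (SE, n = 6, limma adjusted p = 0.998), and without culture 4 it was -0.69 ± 0.19 (adjusted p = 0.377). In KO cultures the differences ran from -0.38 to 0.53, higher in 5 of 7, with a fitted 0.11 ± 0.15. The KO minus WT difference of these Dex effects was 0.74 ± 0.23 (SE, limma adjusted p = 0.999), so it was not called. No gene of the whole table was called in that test, in which limma gave 688 genes at an unadjusted p under 0.05.

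Tcf7l2 was the other Wnt gene with lower Dex than vehicle arrays in 6 of 6 WT cultures by the labels, or 5 of 6 if the arrays of culture 4 (-0.13) were exchanged. Its differences were -0.65 to -0.13, with a fitted -0.33 ± 0.15 (SE, limma adjusted p = 0.998). In KO cultures its differences ran from -0.74 to 0.26. Wnt5a differed by -1.23 to 0.52 in WT cultures, lower in 5 of 6, with the rise in culture 4. Its fitted difference was -0.41 ± 0.18, and -0.60 ± 0.17 without culture 4 (limma adjusted p = 0.474). In KO cultures Wnt5a was lower in 6 of 7, by -0.67 to 0.27, with a fitted -0.33 ± 0.17. The lowest WT difference was in culture 6, in which the 3 choroid plexus markers averaged 8.32 in Dex and 7.43 in vehicle, against 5.03 to 5.71 and 5.11 to 5.54 in the other WT cultures. Of these 3 markers, Ttr had a genotype SE of 1.00 in vehicle, against 0.25 for Kl and 0.26 for Folr1. The mean of culture 6 may therefore rest mostly on Ttr. The part of choroid plexus cells in the values of culture 6 was not tested.

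In KO cultures Fzd1 had the smallest Dex p. Its levels were 9.53 to 11.11 (median 10.10) in KO Dex and 9.29 to 10.31 (median 9.94) in KO vehicle arrays, and the difference within a culture was 0.55 to 0.83 in cultures 7, 8, 9, 10 and 13, 0.05 in culture 12 and 0 in culture 11. The fitted difference was 0.50 ± 0.15 (SE, n = 7, limma adjusted p = 0.323), or 1.42-fold. In WT cultures Fzd1 differed by -0.37 to 0.68, with a fitted 0.21 ± 0.16, from levels of 9.24 to 10.52 (median 9.78) in Dex and 8.96 to 9.94 (median 9.695) in vehicle. The effects of the genotypes differed by 0.29 ± 0.22, which was not called.

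Fzd6, which lay mostly under the low-signal limit, had 4.92 to 6.22 (median 5.50) in KO Dex and 5.48 to 6.24 (median 5.72) in KO vehicle arrays, and 5.41 to 6.31 (median 5.74) in WT Dex and 4.99 to 6.05 (median 5.495) in WT vehicle arrays. Its fitted Dex difference was -0.38 ± 0.16 (SE) in KO and 0.27 ± 0.17 in WT cultures, and the effects differed by -0.65 ± 0.23 (limma adjusted p = 0.999). Nkd1 had 5.55 to 7.72 (median 7.05) in KO Dex and 6.75 to 7.81 (median 7.31) in KO vehicle arrays, and 6.71 to 7.90 (median 7.39) in WT Dex and 6.43 to 7.85 (median 7.345) in WT vehicle arrays. Its Dex difference of -0.53 ± 0.21 in KO cultures (limma adjusted p = 0.434) was -0.24 without culture 12, in which it was -2.26.

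Dkk2, an extracellular inhibitor below the low-signal limit on every array, was the 1 Wnt gene higher in Dex in 7 of 7 KO cultures, a pattern of 1.01% of all genes, with a fitted 0.21 ± 0.15 (SE). Of the 4 genes called between genotypes, Lef1, Fzd9 and Wls had Dex differences of 0.36 ± 0.27, 0.17 ± 0.22 and -0.31 ± 0.15 in KO and of 0.21 ± 0.29, 0.14 ± 0.24 and -0.22 ± 0.17 in WT cultures. No gene of the further lists was called for Dex with all cultures. Mycn had -0.86 ± 0.14 in WT cultures (limma adjusted p = 0.219), at levels under the low-signal limit, and was the 1 gene of these lists called without culture 4, when it fell by 0.92 ± 0.16 (limma adjusted p = 0.0150).

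**Figure D5:**
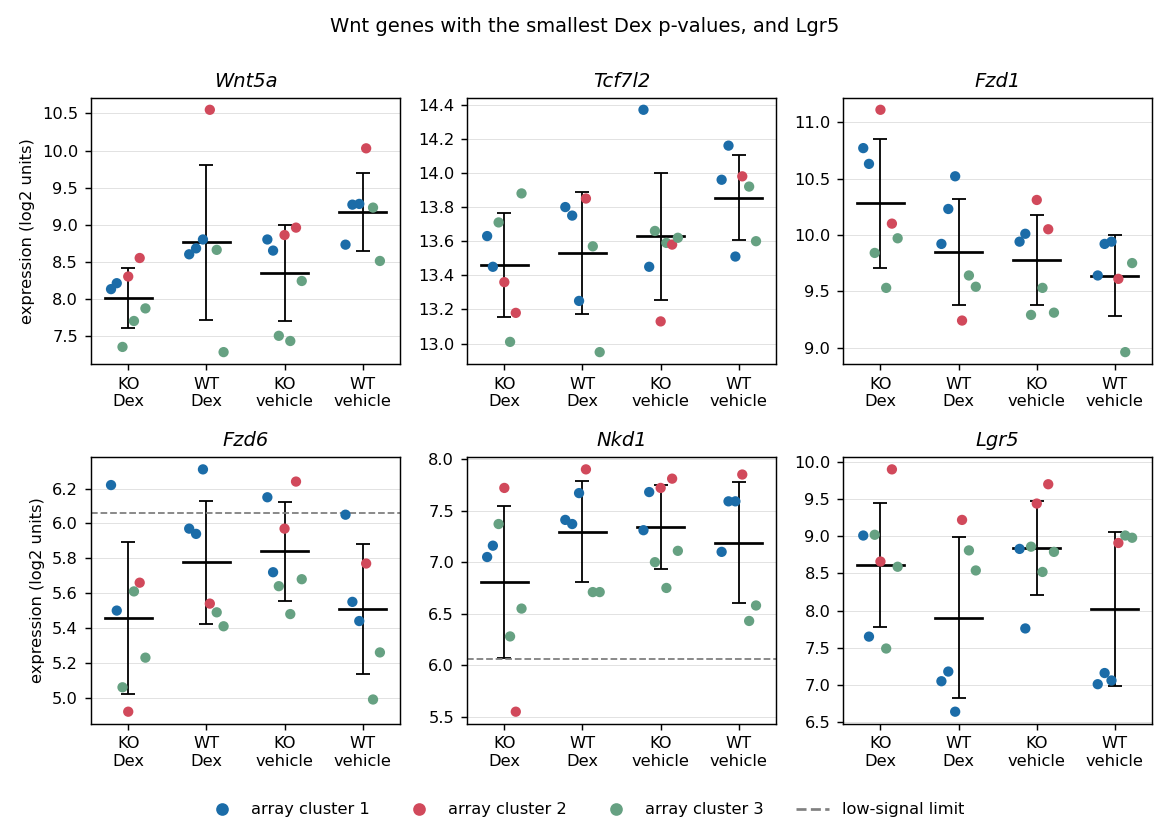
Level of Lgr5 and of 5 Wnt genes with small Dex p-values, besides Axin2, on each array, in log2 units, by group, with points coloured by array cluster and bars for the group mean and SD (KO n = 7, WT n = 6). The dashed line is the low-signal limit. Dex and vehicle groups of each genotype overlap in every panel, and the WT points of Lgr5 lie apart by array cluster.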

How the data were processed

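Per the labels, cRNA labelled with biotin from each of 26 samples was measured on 1 array each. The deposited table holds 22206 transcript clusters with values of 2.22 to 19.81 that were taken as log2 expression made by the authors. The base of the logarithm and the authors' normalization are not given in the sources used here. Array medians were 6.44 to 6.84 and upper quartiles 9.38 to 10.43, so the arrays do not share 1 distribution. Of the transcript clusters, 19572 carry 1 gene symbol and 2634 none, and the row of highest mean was kept for the 55 genes with several, which left 19505 genes. No Wnt gene had more than 1 row.

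Genotypes were compared with limma 3.58.1 in R 4.3.3, with 1 mean for each of the 4 groups. The spread came from all 26 arrays, and the 2 arrays of a culture entered it as independent, although their consensus correlation was 0.489. With the culture as a random block, Wls, Fzd9 and Lef1 were called again in both treatments and Axin2 in vehicle. With only the 2 groups compared, Lef1 and Fzd9 were not called in Dex (limma adjusted p = 0.0981 and 0.0653). Dex was compared with vehicle with the culture as a block. The labels give the vehicle and Dex arrays the same sample number and say that the cultures of each animal were kept apart. After group means were removed, arrays of 1 number correlated at 0.312 to 0.731, and 22 of the 26 had their best match in their own number. The number of arrays limits the precision. The scripts were tested on simulated data.

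The 40 genes, the further lists and the markers were chosen with earlier results of these data known, as was the alternative without culture 4. Levels in all 4 groups are given for Wnt genes called in any contrast, or with array cluster as a covariate, and for the 3 of smallest p in each contrast. Not every fitted difference of these genes is given. From the further lists, called genes and the 3 of smallest p in vehicle are named, where these differ. Other genes named were chosen after their values were seen. Alternatives were other scalings, a filter on low means, another prior, the mean of a gene's rows, leaving out each culture, array cluster, the culture as a random block, the Y-linked gene Eif2s3y as a covariate and only the 2 groups compared. Leaving out culture 12, its Dex array, or both cultures 4 and 12, and array cluster without culture 4, were added after seeing the data.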

Additional observations from a re-analysis of the deposited data

Results flagged for a closer look

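Groups of levels or of Dex minus vehicle differences were taken for Sox2 and the 12 Wnt genes named by the rule above. Of 78 such groups, 8 had 1 array or culture far from the others by Dixon's test, which chance does in about 1 in 20 groups. KO culture 12 gave 5 of these. In its Dex array Lef1 had 8.40, against 4.86 to 6.31 in the other KO Dex arrays, and Apc had 11.94, against 12.87 to 13.56. Its Dex minus vehicle differences were 1.68 for Fzd9, against -0.39 to 0.45 in the other KO cultures, -1.07 for Apc, against -0.22 to 0.31, and -2.26 for Nkd1, against -0.56 to 0.37. The remaining 3 lay in other cultures. Tcf7l2 had 14.37 in the vehicle array of KO culture 7, against 13.13 to 13.66 in the others. Axin2 had 7.35 in the Dex array of KO culture 10, against 6.16 to 6.65, and Fzd1 had 8.96 in the vehicle array of WT culture 5, against 9.61 to 9.94.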

How the results depend on the processing

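No Wnt gene whose level is given here as called reversed its direction in any alternative run, but the medians over the 37 genes, which lie near 0, changed sign in some. In vehicle, the number of Wnt genes called lower was 2 instead of 1 with the filter on low values, with array cluster as a covariate with and without culture 4, with the Y-linked covariate, without the Dex array of culture 12, and with the culture as a random replicate block (consensus correlation 0.489). The median over the Wnt genes in vehicle was 0.0175 with array cluster, against -0.11. That in Dex was 0.0114 after median centring and 0.00167 without both cultures 4 and 12, against -0.07, and that of the difference of the Dex effects, -0.01, was 0.0086 to 0.072 with quantile normalization, median centring, the filter and without both cultures 4 and 12. In Dex, the number called higher was 1 with only the 2 groups compared. The number called lower in Dex was 2 with array cluster and 1 after quantile normalization, with the filter, with the Y-linked covariate, with array cluster without culture 4, without the Dex array of culture 12 and without both cultures 4 and 12. Leaving out 1 culture at a time gave 1 to 3 higher and 0 to 2 lower in vehicle with medians of -0.13 to -0.015, and 2 to 3 higher and 0 to 1 lower in Dex with medians of -0.15 to -0.00167. For Dex against vehicle and the difference of its effects, 0 Wnt genes were called in every alternative, including those with no replicate block, and leaving out 1 culture gave medians of -0.17 to -0.045 in KO, -0.08 to -0.018 in WT and -0.04 to 0.035 for their difference. Among all genes, 37 higher and 72 lower in vehicle became 188 and 188 with array cluster, 71 and 98 after quantile normalization and 60 and 80 after median centring, and 36 and 74 in Dex became 187 and 210, 77 and 94, and 67 and 85. With no replicate block Dex called 10 genes higher in KO, against 14 with it. The cause of these shifts was not tested. The Lef1 call rests on signals near background.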

Other observations

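Wnt7a was singled out after its values were seen. Its Dex minus vehicle difference was below 0 in 6 of 7 KO cultures and in 4 of 6 WT cultures. The exceptions were KO culture 12 and WT cultures 4 and 6. Levels were 6.62 to 7.84 (median 6.79) in KO Dex and 7.01 to 7.63 (median 7.14) in KO vehicle arrays, and 6.51 to 7.98 (median 6.965) in WT Dex and 7.19 to 7.54 (median 7.325) in WT vehicle arrays. The fitted differences of -0.33 ± 0.19 (SE) in KO and -0.23 ± 0.20 in WT cultures were not called.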
